A study of Mustela putorius furo with 8 samples.

Results

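The 9 genes described here, ISG15, IFI6, IFIT3, ISG20, MX1, IRF7, RSAD2, IFIH1 and USP18, are interferon-stimulated genes chosen by symbol, and they were 9 of the 27912 genes counted. They were measured in ferret pancreatic ductal epithelial (PDE) cells, the cells that line the ducts of the exocrine pancreas, by 10x Genomics single-cell RNA sequencing. Cells came from newborn wild-type (WT) ferrets and from newborn ferrets in which CFTR, the chloride and bicarbonate channel lost in cystic fibrosis, was knocked out (CFTR KO/KO, called CF). They were expanded for 10 passages, seeded on 804G-coated transwell inserts, switched to PneumaCult-ALI medium, and collected after 2, 5, 7 and 9 days at an air-liquid interface. Each genotype and day gave 1 library, in which cells of 3 donors had been mixed, so there were 8 libraries and no replicates. All intervals are 95% intervals that cover counting error only, and no test between genotypes or days was run. Cells, donors and days did not serve as replicates.

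Interferons are secreted proteins that cells release on sensing foreign or misplaced nucleic acid. Type I and type III interferons act through their receptors on the kinases JAK1 and TYK2, which activate transcription factors of the STAT family, and these with IRF9 switch on interferon-stimulated genes. Many of those genes are active at a low level in epithelial cells without any infection, and their level is known to vary from cell to cell.

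The libraries held 4634 to 6224 cells for WT and 1607 to 4499 for CF, with median depths of 14949 to 16862 unique molecular identifiers (UMIs) per WT cell and 17833 to 23427 per CF cell. Total UMIs ran from 34735952 to 114585136 per library. Of 28 pairs of libraries, each shared between 1 and 14 cell barcodes, at most 0.4% of the smaller library. CFTR itself was counted at 6.57, 16.9, 15.9 and 29.5 CPM (UMIs per 1e6) in WT on days 2, 5, 7 and 9 and at 2.50, 8.69, 11.1 and 11.4 CPM in the libraries labelled CF. The paper describes animals of this genotype as lacking CFTR mRNA and protein. The CF counts do not match that description, and the cause was not tested. Counts at the end of a transcript do not check a change elsewhere in it, so the genotypes are those of the labels. Ductal markers (KRT7, KRT8, KRT18, KRT19, EPCAM, SOX9 and CFTR) summed to 7638 to 9999 CPM in WT and 8687 to 9275 CPM in CF, and all 7 were counted. Of 6 acinar markers looked for, PRSS1, CPA1 and AMY2B were not among the genes counted. The other 3 summed to at most 0.21 CPM, with PTF1A at 0, and the 5 endocrine markers to at most 0.112 CPM, with INS, GCG and NEUROD1 at 0. Of 8 immune markers, which summed to 8.59 to 19.4 CPM in WT and 7.34 to 24.9 CPM in CF, CSF1R and NKG7 were at 0. On day 2, CD68 stood at 3.88 CPM in WT and 20.9 CPM in CF, CD14 at 15.1 and 3.31 CPM, and PTPRC had 1 UMI in each. The 4 endothelial markers summed to at most 0.259 CPM. The 6 fibroblast markers, none of them at 0 throughout, summed to 2.30 to 5.79 CPM in WT and 1.53 to 28.04 CPM in CF. Among them COL1A1 stood at 0, 0.652, 0.0723 and 0.153 CPM in WT and at 4.49, 0.0839, 18.9 and 13.2 CPM in CF on days 2, 5, 7 and 9. The part of immune cells and fibroblasts in the results was not tested.

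In the annotation of ASM1176430v1.1, all 9 genes were protein coding, with start and end given here along the assembly sequence that holds each gene. ISG15 spanned 151130 to 152308, IFI6 20261931 to 20265254, and ISG20 6841997 to 6852910. MX1 spanned 4038552 to 4067794 beside TMPRSS2, and RSAD2 7894910 to 7910408 beside CMPK2, another interferon-stimulated gene. IFIH1 spanned 18668457 to 18723663 and USP18 17985461 to 18045628. IFIT3, at 474150 to 487168 beside IFIT2, lay almost wholly within the span of LOC101675223, at 466463 to 487153. IRF7, at 16686252 to 16689804, overlapped the start of the span of PHRF1, at 16689497 to 16717082. Whether the counting used strand was not given in the sources used here. How reads of these overlapping pairs were assigned, and whether some were left uncounted, is therefore not known.

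With all cells kept, the highest CF over WT ratio of the 9 genes was that of ISG20, an exonuclease that degrades single-stranded RNA, on day 2. Without the top cell of each library the ratio of MX1 on day 5, given with that gene, was higher. ISG20 stood at 24.3, 23.8, 19.8 and 55.9 CPM in WT on days 2, 5, 7 and 9 and at 219, 94.6, 62.8 and 75.7 CPM in CF. Every CF library lay above every WT library, with the WT library of day 9 the nearest. The CF over WT ratio fell with the days, from 9.02 (8.67 to 9.38) on day 2 to 3.97 (3.79 to 4.16), 3.18 (2.98 to 3.39) and 1.35 (1.30 to 1.41). WT and CF moved in opposite directions between day 2 and day 9: the day 9 over day 2 ratio was 2.30 (2.20 to 2.41) in WT and 0.345 (0.334 to 0.358) in CF. In WT the rise came between days 7 and 9, with a ratio of 2.83 (2.67 to 3.00), while days 2 and 5 differed by a ratio of 0.980 (0.928 to 1.04). The CF excess depends on the WT cells chosen: against WT cells of clusters under 10 CPM of the transcription factor SOX2 (SOX2-low), the difference on log2(CPM + 1) was 0.60, 1.202, 0.52 and -0.57 on days 2, 5, 7 and 9, so that day 9 turned and days 2 and 7 were within 2-fold. On day 2, 84.8% of the ISG20 UMIs of those WT cells were in WT clusters 19 and 33, described further on. Without these 2 clusters the difference was 1.44 on day 2 and -0.29 on day 9. CF kept its own high cluster there, CF cluster 4. CF cells of day 2 outside it had 145 CPM of ISG20, beside 80.3 CPM in the other SOX2-low WT clusters, within 2-fold.

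IFI6, a small mitochondrial and endoplasmic reticulum protein that opposes cell death, held most of the UMIs of the 9 genes. Its share of them was 66.2% to 83.7% in the WT libraries and 62.0% to 77.5% in the CF libraries. IFI6 stood at 375, 182, 273 and 201 CPM in WT and at 1082, 310.2, 264 and 186 CPM in CF. CF was above WT on days 2 and 5, at ratios of 2.89 (2.85 to 2.92) and 1.70 (1.67 to 1.73), and slightly below it on days 7 and 9, at 0.968 (0.945 to 0.992) and 0.922 (0.899 to 0.946). From day 2 to day 9 IFI6 went to 0.536 of its level in WT and to 0.171 of it in CF. On log2(CPM + 1) the order of the genotypes turned on day 7 when each cell was thinned to 3000 UMIs, to 0.10, and on day 9 without CF cluster 4 and WT clusters 33 and 35, described further on, to 0.017. Against SOX2-low WT clusters the difference on day 2 was 0.08, and it was 0.86 when WT clusters 19 and 33 were left out of them. CF kept CF cluster 4 there, and CF cells of day 2 outside it had 762 CPM beside 598 CPM in those WT cells.

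ISG15 encodes a ubiquitin-like protein that is attached to other proteins, and USP18 encodes the protease that removes it and that also blocks signalling at the type I interferon receptor. ISG15 stood at 25.3, 14.7, 8.46 and 13.0 CPM in WT and at 41.7, 26.1, 8.64 and 8.32 CPM in CF. The CF over WT ratio was above 1 on days 2 and 5, at 1.65 (1.57 to 1.73) and 1.77 (1.66 to 1.90), included 1 on day 7, at 1.02 (0.889 to 1.17), and was 0.638 (0.569 to 0.715) on day 9. On day 5 a single cell held 469 of the 1488 ISG15 UMIs in WT and another held 325 of the 1865 in CF, and without these cells the ratio was 2.14 (1.98 to 2.32). The direction on day 2 turned to -1.66 on log2(CPM + 1) against SOX2-low WT clusters, of whose ISG15 UMIs 92.6% were in WT clusters 19 and 33. It was 0.20 against the other SOX2-low WT clusters, with CF cluster 4 kept in CF. CF cells of day 2 outside CF cluster 4 had 21.5 CPM, under the 36.3 CPM of those other WT clusters. The direction also turned to -0.20 without the highest cluster of each genotype, CF cluster 4 and WT cluster 35. It was 0.29 when WT cluster 33 was left out as well. USP18 stood at 7.37, 6.13, 6.68 and 10.1 CPM in WT and at 12.4, 12.7, 9.36 and 10.5 CPM in CF. Its CF over WT ratio was 1.68 (1.54 to 1.84), 2.07 (1.87 to 2.30) and 1.4 (1.22 to 1.61) on days 2, 5 and 7 and included 1 on day 9, at 1.04 (0.930 to 1.16). Its direction on day 2 also turned against SOX2-low WT clusters, to -1.11 on log2(CPM + 1), and to -0.20 against those other than WT clusters 19 and 33. The latter rests on 58 UMIs in 206 WT cells, at 14.4 CPM beside 12.4 CPM in CF, and has no interval. From day 2 to day 5 in CF, USP18 stayed at a ratio of 1.02 (0.938 to 1.11) while ISG15 went to 0.625 (0.592 to 0.660), and from day 7 to day 9 in WT both rose, at 1.51 (1.35 to 1.68) and 1.54 (1.4 to 1.7).

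IFIH1, also called MDA5, is a sensor of long double-stranded RNA in the cytoplasm, upstream of interferon as well as induced by it. It stood at 11.6, 14.0, 13.4 and 15.1 CPM in WT and at 24.96, 19.7, 17.1 and 16.5 CPM in CF. The CF over WT ratio was 2.15 (2.01 to 2.29), 1.41 (1.31 to 1.52), 1.28 (1.15 to 1.41) and 1.09 (0.999 to 1.19), so the genotypes drew together as WT rose and CF fell. One cell of the CF library of day 2 held 195 of its 2554 IFIH1 UMIs, and the ratio without the top cell of each library was 1.99 (1.86 to 2.13), or 0.94 on log2(CPM + 1), within 2-fold. Without the highest cluster of each genotype, CF cluster 4 and WT cluster 35, the day 2 difference was 0.58. On day 2 CF cluster 4 held 38.8% of the IFIH1 UMIs of CF and WT cluster 35 held 0.225% of those of WT. Leaving out both therefore lowers CF far more than WT.

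IFIT3 is one of the tetratricopeptide proteins that bind viral RNA and antiviral signalling proteins. It stood at 10.9, 3.77, 4.32 and 7.22 CPM in WT and at 14.6, 4.8, 3.25 and 2.20 CPM in CF. In CF it fell at every step, to 0.151 (0.123 to 0.183) of its day 2 level by day 9, whereas in WT it fell to day 5 and stood 1.67 (1.47 to 1.91) times as high on day 9 as on day 7. The CF over WT ratio passed from 1.34 (1.24 to 1.44) and 1.27 (1.1 to 1.48) on days 2 and 5 to 0.754 (0.605 to 0.934) on day 7 and 0.305 (0.246 to 0.374) on day 9. A single cell held 72 of the 612 IFIT3 UMIs of the WT library of day 9. Without the top cell of each library the day 9 ratio was 0.327 (0.262 to 0.404). On day 2 the direction turned to -1.96 on log2(CPM + 1) against SOX2-low WT clusters, to -0.29 against those other than WT clusters 19 and 33, to -0.63 without the highest cluster of each genotype and to -0.056 without CF cluster 4 and WT clusters 33 and 35, and on day 7 it turned to 0.16 with equal weight for each class. LOC101675223, which overlaps IFIT3, stood at 3.09, 1.23, 1.23 and 2.28 CPM in WT and at 4.78, 1.89, 0.892 and 1.2 CPM in CF.

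MX1, a dynamin-like GTPase that blocks virus replication, was counted in few cells. Its UMIs numbered 125, 30, 11 and 24 in WT and 98, 143, 11 and 9 in CF, that is 1.09, 0.296, 0.133 and 0.283 CPM and 0.958, 2.00, 0.317 and 0.18 CPM. The CF library of day 5 stood out, at 6.75 (4.53 to 10.4) times WT, while the ratio included 1 on the other 3 days. A single cell held 42 of the 143 CF UMIs of that day and another held 21 of the 30 WT UMIs. Without these cells 101 and 9 UMIs were left, with a ratio of 15.9 (8.05 to 35.8).

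IRF7 is the transcription factor that amplifies type I interferon production, and RSAD2, or viperin, makes a nucleotide that stops viral RNA synthesis. IRF7 had 75, 25, 17 and 43 UMIs in WT and 43, 37, 13 and 10 in CF, at most 0.655 CPM. Its CF over WT ratio was 0.642 (0.431 to 0.946) on day 2, 2.10 (1.23 to 3.63) on day 5 and 0.394 (0.177 to 0.797) on day 9, and it included 1 on day 7, at 1.83 (0.816 to 3.99). On log2(CPM + 1) the IRF7 difference turned to 0.25 on day 2 with equal weight for each class and to -0.021 on day 5 with thinned cells. RSAD2 had 11, 16, 20 and 33 UMIs in WT and 36, 18, 15 and 7 in CF, at most 0.432 CPM. The level of RSAD2 rose in WT from day 2 to day 9, at a ratio of 4.05 (2.00 to 8.89), and fell in CF, at 0.398 (0.149 to 0.907). On day 2 the CF over WT ratio of RSAD2 was 3.66, with 28 of the 36 CF UMIs in CF cluster 4, and the difference on log2(CPM + 1) turned to -0.0062 without the highest cluster of each genotype and to -0.19 against SOX2-low WT clusters. Both genes were so low that single cells can move them: 7 of the 33 RSAD2 UMIs in the WT library of day 9 were in 1 cell. PHRF1, which overlaps IRF7, stood at 22.1 to 26.8 CPM over the 8 libraries, far above IRF7.

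**Figure D1:**
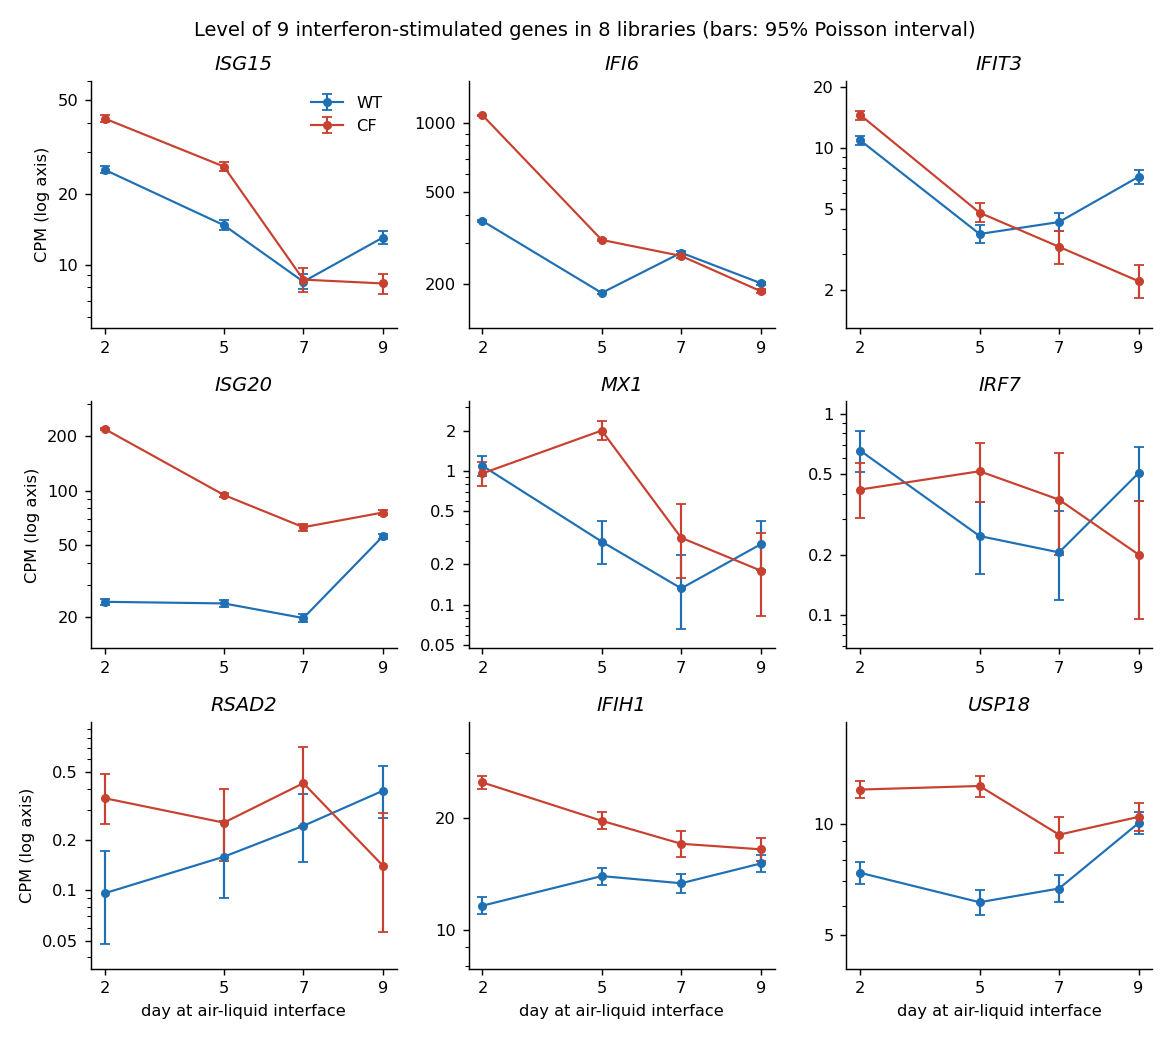
Level of each of the 9 genes in CPM (log axis) against the day at the air-liquid interface for WT and CF, 1 library per point, with bars for the 95% Poisson interval of the UMI count. CF stood above WT in ISG20 on all 4 days, from 219 against 24.3 CPM on day 2 to 75.7 against 55.9 CPM on day 9, while the IFIT3 lines crossed between days 5 and 7.

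In libraries of this depth the counting interval of the CF over WT ratio left out 1 for most genes. Of the 7, 7, 6 and 6 genes of the 9 that reached 1 CPM in either library on days 2, 5, 7 and 9, it lay above 1 for 6, 7, 3 and 1, beside 39.1%, 31.2%, 48.7% and 45.5% of all genes of that level. It lay below 1 for 0, 0, 2 and 3, beside 42.8%, 44.9%, 25.9% and 29.3% of all genes. With a limit of 2-fold on log2(CPM + 1), which understates the change of genes near 1 CPM, fewer genes differed. ISG20, IFI6 and IFIH1 passed it on day 2, 3 of the 7 genes that reached 1 CPM in either library, where 4.81% of all 11883 genes of that level were as much higher in CF. IFIH1, at 1.04 on log2(CPM + 1), lost its call with TMM factors (0.99), with thinned cells (0.97), with a pseudocount of 5 CPM (0.85), without the top cell of each library and without the highest cluster of each genotype. ISG20 and MX1 passed it on day 5, 2 of 7 genes, beside 2.79% of all genes, and without the top cell of each library ISG15 did as well, at 1.03. MX1 was within 2-fold with thinned cells as drawn (0.91), with a pseudocount of 5 CPM (0.40) and without the highest cluster of each genotype (0.82). ISG20 alone passed it on day 7, 1 of 6 genes, beside 5.73% of all genes. No gene of the 9 was 2-fold higher on day 9, where 4.16% of all genes were, and IFIT3 was lower, 1 of 6 genes beside 4.42% of all genes. None of the 9 was 2-fold lower in CF on days 2, 5 and 7, where 5.13%, 5.35% and 3.78% of all genes were. Against SOX2-low WT clusters these counts changed: of the 8, 7, 6 and 7 genes of the 9 that reached 1 CPM there, 0, 3, 0 and 0 were 2-fold higher in CF on days 2, 5, 7 and 9, beside 2.83%, 4.86%, 7.44% and 3.46% of all genes in that comparison, and 5, 0, 0 and 2 were 2-fold lower, beside 2.23%, 3.76%, 2.92% and 2.07%. With WT clusters 19 and 33 left out of them, 1, 3, 0 and 0 genes of 7, 7, 6 and 6 were higher, beside 3.94%, 4.86%, 7.41% and 3.52% of all genes. None was lower, beside 4.57%, 3.78%, 2.94% and 1.96%. CF cluster 4 stayed in CF there. In the whole libraries IRF7 and RSAD2 did not reach 1 CPM on any day, and MX1 did not on days 7 and 9. The median log2 difference over the genes of the 9 that reached 1 CPM was 0.70, 0.79, 0.18 and -0.03 on days 2, 5, 7 and 9, beside -0.02, -0.06, 0.13 and 0.08 over all such genes. The 4 comparisons share no library, but each rests on 1 library per genotype.

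The summed level of the 9 genes was 456, 245, 326 and 304 CPM in WT and 1396, 471, 366 and 299 CPM in CF, and CF over WT was 3.06 (3.03 to 3.09), 1.92 (1.89 to 1.95), 1.12 (1.1 to 1.15) and 0.985 (0.966 to 1.01). That sum is mostly IFI6. Without IFI6 the ratio was 3.87, 2.55, 1.92 and 1.11. That smaller sum is in CF mostly ISG20, with 22423 of 32188, 6763 of 11483, 2181 of 3551 and 3785 of 5685 UMIs. In WT ISG20 had 2785 of 9324, 2410 of 6384, 1640 of 4411 and 4743 of 8694 UMIs. The ratio without IFI6 is therefore not a common trait of the other genes. The sums on day 2 depend on which WT cells they are set against. SOX2 was high in some WT clusters and at most 1.08 CPM in every CF cluster of at least 50 cells, and against WT cells of clusters under 10 CPM of SOX2 alone the ratio was 0.981 on day 2, 1.58 on day 5, 0.778 on day 7 and 0.543 on day 9. On day 2 those WT cells numbered 892, of which 686 were of WT clusters 19 and 33 and held 85.2% of their UMIs of the 9 genes, at 1670 CPM beside 769.5 CPM in the other 206 cells. Without these 2 clusters, both high in the 9 genes, the ratio was 1.81 on day 2, 1.58 on day 5, 0.781 on day 7 and 0.633 on day 9. In such sums over cells, fewer cells with a gene and less RNA of it per cell cannot be told apart.

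**Figure D2:**
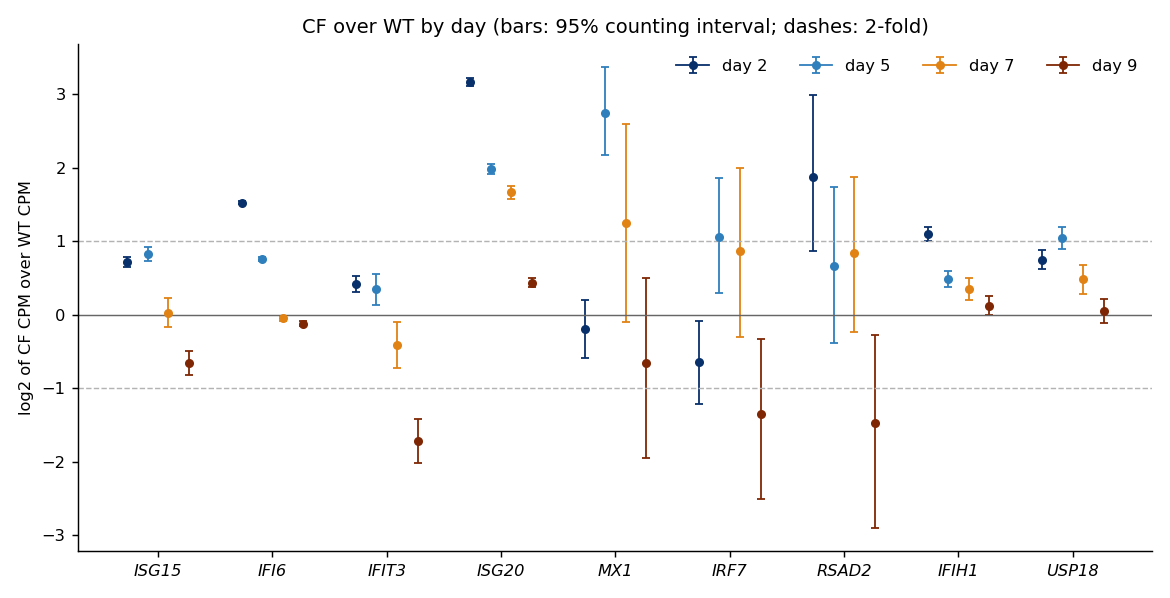
Log2 of the CF over WT ratio of CPM for each gene on days 2, 5, 7 and 9, with bars for the 95% counting interval and dashed lines at 2-fold. ISG20 lay above 0 on every day and IFIT3 passed from above to below 0, while the long bars of MX1, IRF7 and RSAD2 rest on 7 to 143 UMIs per library.

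From day 2 to day 9 the ratio of levels was lower in CF than in WT for all 9 genes, although the counting intervals overlapped for MX1 and IRF7. From day 2 to day 5, IFI6 and IFIT3 fell at least 2-fold on log2(CPM + 1) in WT, 2 of 7 genes beside 1.59% of all genes that fell so far, and IFI6, IFIT3 and ISG20 did in CF, 3 of 7 beside 0.583%. None of those 7 was as much higher, where 5.59% of all genes were in WT and 2.05% in CF. The CF cells of day 2 outside CF cluster 4 had 145 CPM of ISG20, 6.70 CPM of IFIT3 and 762 CPM of IFI6. From those cells to the CF library of day 5, ISG20 (94.6 CPM) and IFIT3 (4.8 CPM) fell within 2-fold. IFI6 (310.2 CPM) stayed past the limit. From day 5 to day 7 no gene of the 9 passed the limit in WT, where 0.224% of all genes were higher and 0.664% lower, and ISG15 and MX1 fell in CF, 2 of 7 beside 0.536%, with none higher beside 2.37%. Without the top cell of each library MX1 stood at 1.41 and 0.259 CPM in CF on days 5 and 7, within 2-fold, and ISG15 stayed past the limit, at 21.6 and 7.29 CPM. From day 7 to day 9 ISG20 rose in WT, 1 of 6 beside 1.41%, with none lower beside 1.14%, and none passed in CF, where 0.165% of all genes were higher and 0.157% lower. Set directly against day 2, day 9 in CF had ISG15, IFI6, IFIT3 and ISG20 lower, 4 of 6 genes beside 3.28% of all genes, and in WT had ISG20 higher, 1 of 7 beside 9.65%. None of these 6 or 7 passed in the other direction over that span, where 7.91% of all genes were higher in CF and 6.25% lower in WT. Set against the CF cells of day 2 outside CF cluster 4, ISG20 on day 9 was within 2-fold, at 75.7 beside 145 CPM. ISG15, IFI6 and IFIT3 stayed past the limit there. ISG15 went to 0.515 (0.480 to 0.553) of its day 2 level in WT and to 0.199 (0.18 to 0.221) in CF by day 9. USP18 and IFIH1 instead stood at 1.37 (1.24 to 1.5) and 1.3 (1.2 to 1.4) times their day 2 level in WT and at 0.843 (0.760 to 0.934) and 0.661 (0.610 to 0.715) of it in CF. Whether these courses differ between genotypes was not tested.

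The share of cells with a UMI was highest for IFI6. After each cell was thinned to 3000 UMIs, which left out 39 to 411 shallower cells per library (411 of them in the CF library of day 7), IFI6 was seen in 57.0%, 36.2%, 45.5% and 32.4% of WT cells and in 76.6%, 55.7%, 49.0% and 38.5% of CF cells. Unthinned, 68.7% to 95.2% of the cells in a WT library had it, and 73.9% to 98.6% in a CF library. ISG20 was seen in 3.89%, 4.69%, 4.06% and 8.33% of thinned WT cells and in 26.7%, 12.7%, 10.95% and 14.5% of CF cells, with unthinned shares of 11.2% to 24.0% and 30.2% to 60.7%. A share of cells with a UMI does not count the cells that make the gene. ISG15 was seen in 4.67%, 2.78%, 2.08% and 2.35% of WT cells and in 5.74%, 2.59%, 1.59% and 1.85% of CF cells, with unthinned shares of 8.55% to 15.4% and 7.72% to 21.2%. On day 5 the ISG15 share did not follow its CPM, so no order was read from it. MX1, IRF7 and RSAD2 were each seen in at most 0.259% of thinned cells of any library, and MX1 in 0 of 1196 cells of the CF library of day 7, for which the interval reaches 0.308%. Free RNA in droplets adds UMIs to cells that do not make them, and no cell type in these cultures is known to lack these genes, so no background share could be given. In the WT library of day 2 the lowest class level of ISG20 was 0.982 CPM, in 339 cells of the class acinar, beside 24.3 CPM in the whole library.

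Several of the genes were concentrated in a few cells. The 1% of cells of at least 3000 UMIs with the most ISG15 per UMI, between 12 and 53 cells in 7 of the libraries and 62 in the WT library of day 2, were chosen by ISG15, and the limit fell between 462 and 444 CPM of ISG15 there and between 718 and 685 CPM in the CF library of day 2. In the other 6 libraries it lay between 124 and 306 CPM, where a cell can pass with 1 to 5 UMIs. These cells held 0.634% to 1.18% of all UMIs. They held 71.2%, 76.7%, 0% and 16.7% of the MX1 UMIs in WT and 54.6%, 84.6%, 36.4% and 50% in CF on days 2, 5, 7 and 9. Several of these rest on few UMIs: 23 of 30 in WT on day 5, 21 of them in 1 cell, 4 of 24 in WT on day 9, and 4 of 11 and 4 of 8 in CF on days 7 and 9. Of the IFIT3 UMIs they held 24.9%, 13.1%, 10.3% and 47.7% in WT and 38.7%, 35.6%, 28.6% and 11.01% in CF. IFI6 and IFIH1 were spread more widely, with 2.89% to 10.9% and 1.45% to 19.2% of their UMIs in the same cells. IFNE, the only interferon gene counted at over 1 CPM (described further on), was 0.367 to 4.77 times as high in these cells as in the other cells. The direction was not common to the libraries.

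**Figure D3:**
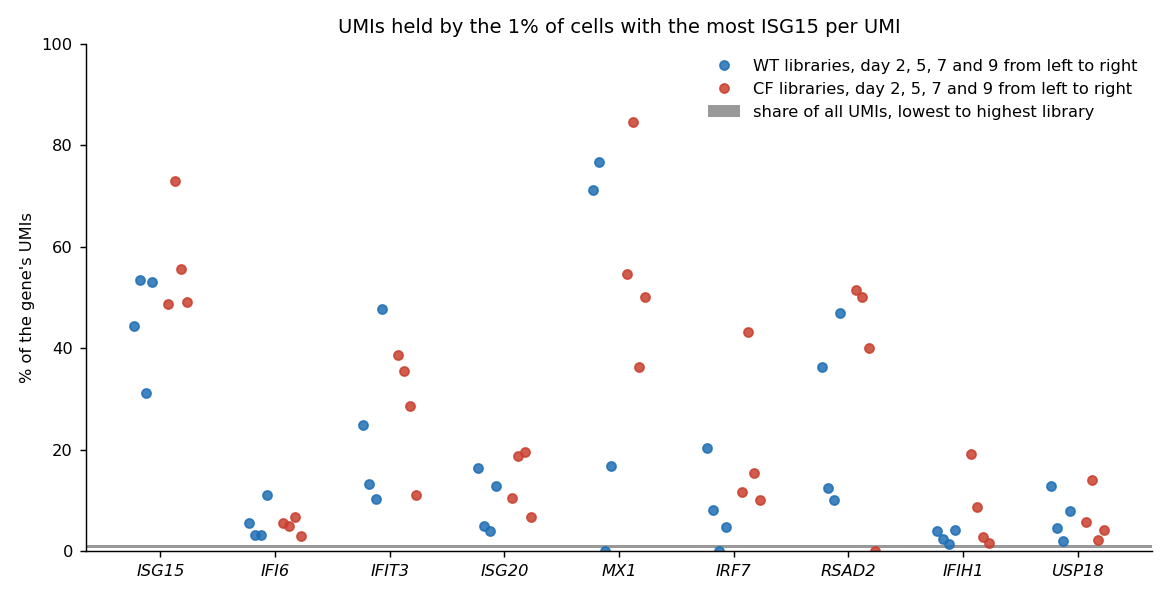
Share of each gene's UMIs, in percent, held by the 1% of cells with the most ISG15 per UMI, with 1 point per library for WT and CF. ISG15 chose the cells, so its own share is no result; MX1 reached 84.6% in the CF library of day 5, and IFI6 stayed at 10.9% or under.

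Few cells had UMIs of several of the 9 genes. After thinning, at least 4 of the 9 were seen in 40, 6, 3 and 23 WT cells (0.651%, 0.116%, 0.0658% and 0.436%) and in 73, 18, 5 and 6 CF cells (1.64%, 0.665%, 0.418% and 0.265%). Without thinning, where depth adds to the count, WT reached 5.45%, 3.25%, 3.30% and 4.41%, whereas CF reached 20.2%, 12.9%, 8.46% and 7.31%. After thinning, CF lay above WT outside both counting intervals on days 2 and 5, and the intervals overlapped on days 7 and 9.

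The deposited cell table gave 41 WT and 30 CF clusters, made separately in each genotype. Levels over clusters are a description, since these genes were among those clustered. The class names are the deposited ones. Since classes named acinar were among them while the 3 acinar markers counted were near 0, clusters are given here by number. Among the 29 CF clusters of at least 50 cells, CF cluster 4 was highest in 7 of the 9 genes. It held 626 cells, 613 of them of day 2, of the deposited class centroacinar_progenitor. ISG15 stood there at 186 CPM beside a median of 11.98 CPM over CF clusters, IFI6 at 2960 beside 337, IFIT3 at 63.5 beside 3.32 and ISG20 at 690.1 beside 73.9 CPM. IFIH1 was at 68.6 beside 16.7 CPM, USP18 at 29.7 beside 6.93 CPM and RSAD2 at 2.17 beside 0.0754 CPM. MX1 did not follow: of its 65 UMIs in CF cluster 4, 42 were in 1 cell of day 5, and the 613 cells of day 2 held 14, or 0.944 CPM beside 0.960 CPM in the other cells of that library.

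Within the CF library of day 2, CF cluster 4 was 13.6% of cells and 14.5% of UMIs. It held 60.8% of the IFIT3 UMIs, 55.9% of ISG15, 43.5% of ISG20, 39.8% of IFI6 and 38.8% of IFIH1, and 28 of the 36 UMIs of RSAD2. The other cells of that library had 21.5 CPM of ISG15 and 6.70 CPM of IFIT3, both under the 25.3 and 10.9 CPM of the whole WT library. They had 145 CPM of ISG20 and 762 CPM of IFI6, both still above WT at 24.3 and 375 CPM. The whole WT library keeps its own high clusters. Without WT cluster 33 it had 18.01 CPM of ISG15 and 7.04 CPM of IFIT3. WT cluster 19, kept in these values, held a further 32.5% of the ISG15 UMIs of that library and 26.9% of its IFIT3 UMIs. No order of the genotypes is read from these levels, since levels without both clusters are not given.

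In WT, 2 clusters under 10 CPM of SOX2 and both mostly of day 2 stood high, WT cluster 33 with 166 cells and WT cluster 19 with 570 cells. WT cluster 33 had 325 CPM of ISG15 beside a median of 8.55 CPM over the 39 WT clusters of at least 50 cells, 2290 CPM of IFI6 beside 234, 169.6 CPM of IFIT3 beside 4.27 and 410.5 CPM of ISG20 beside 10.8. It was highest of the WT clusters in ISG20, IFIH1, USP18 and IRF7, at 49.5 CPM of IFIH1, 85.7 of USP18 and 7.68 of IRF7. In the WT library of day 2, WT cluster 33 was 2.09% of cells and held 37.6% of the MX1 UMIs, 37.1% of IFIT3 and 30.5% of ISG15, while WT cluster 19 was 8.93% of cells and held 40.0%, 26.9% and 32.5%. A further 33 cells of WT cluster 33 came from day 9, 0.609% of that library, with 1126 CPM of ISG20 (1034 to 1223) and 306 CPM of ISG15 (259 to 358). WT cluster 35 was highest in WT for ISG15, IFI6, IFIT3, MX1 and RSAD2, but its 114 cells had a median of 1897.5 UMIs. In that cluster 469 of the 763 ISG15 UMIs were in 1 cell of day 5, and all 10 MX1 UMIs were in 1 cell of day 2. Without the top cell of each cluster, IFI6 stood at 1912 CPM in WT cluster 35 and 2267 CPM in WT cluster 33, so that order turned. IFIT3 then stood at 275 and 161 CPM.

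Taking cells instead of sums, at least 4 of the 9 genes were seen after thinning in 34 of 166 cells (20.5%) of WT cluster 33 and 57 of 624 cells (9.13%) of CF cluster 4. They were seen in 8 of 197 cells (4.06%) of CF cluster 25 and 14 of 569 cells (2.46%) of WT cluster 19. CF clusters 25 and 18 stood high on 1 later day each in ISG15. CF cluster 25 was 6.15% of the cells of the CF library of day 5 and held 34.8% of its ISG15 UMIs, at 94.01 CPM. CF cluster 18 was 6.85% of the cells of the CF library of day 7 and held 34.3% of ISG15 and 35.3% of ISG20, at 27.4 and 205 CPM. On day 7 CF cluster 25 had 2.64 CPM of ISG15 beside 8.84 CPM in the other clusters, from 3 UMIs, and on day 9 CF cluster 18 had 7.35 beside 8.39 CPM. Not every gene followed ISG15. On day 9 CF cluster 18 had 152.5 beside 70.3 CPM of ISG20 and 7.96 beside 1.80 CPM of IFIT3. On day 7 CF cluster 25 had 127 beside 60.6 CPM of ISG20. IFI6 was lower in both, at 158 beside 187 CPM and 230 beside 265 CPM.

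**Figure D4:**
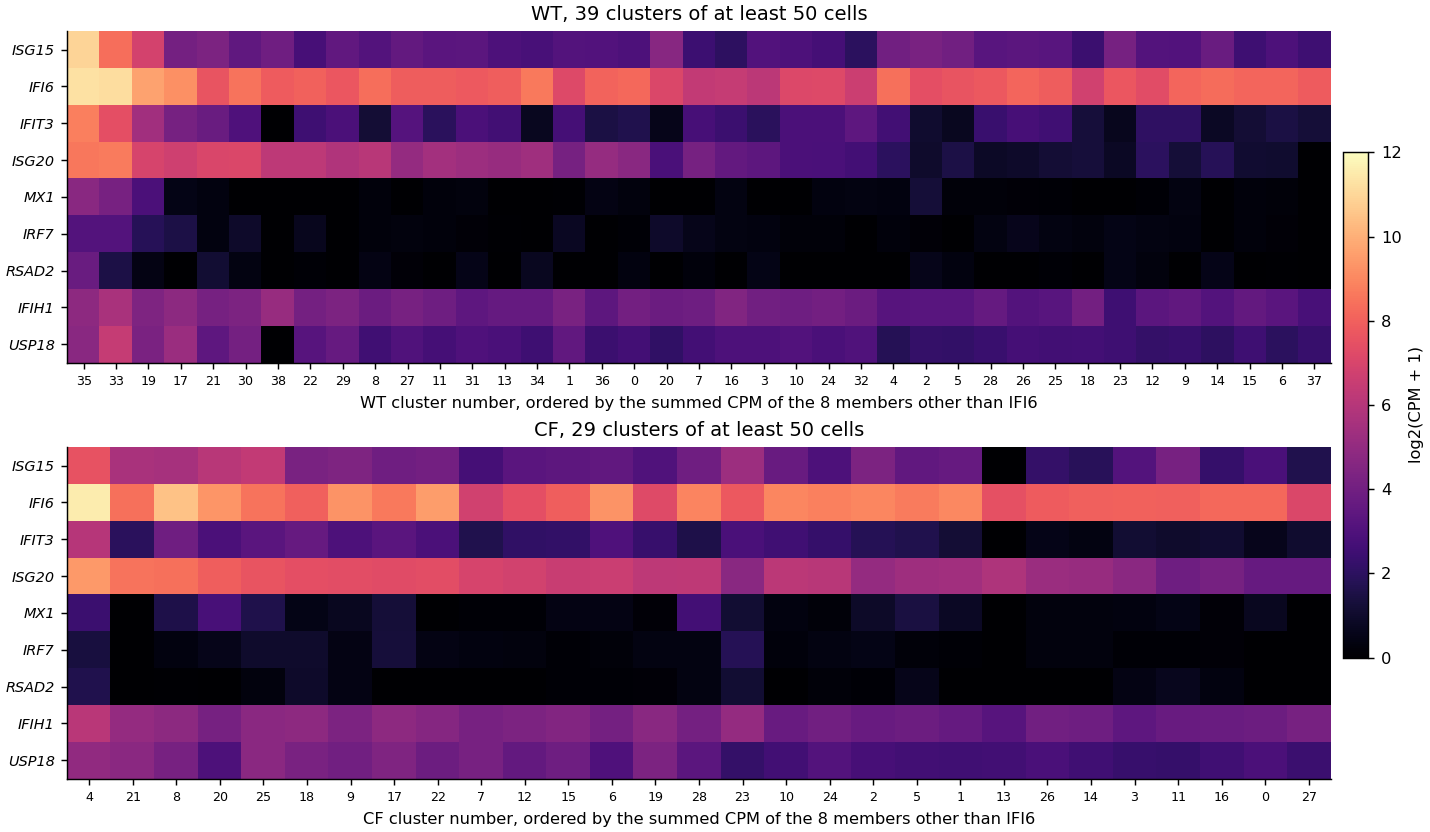
Level of each of the 9 genes as log2(CPM + 1), on a colour scale, over WT and CF clusters of at least 50 cells, ordered by the summed CPM of the 8 genes other than IFI6. CF cluster 4 and WT clusters 35 and 33 lead their genotypes, with 63.5, 447 and 169.6 CPM of IFIT3.

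By deposited class, the highest level of ISG15 on days 2, 5 and 7 lay in different classes in the genotypes. ISG15 in CF was highest in the class centroacinar_progenitor on every day, at 161, 74.6, 23.4 and 9.39 CPM from 621, 538, 331 and 246 cells, and 613 of the 621 cells of day 2 were CF cluster 4. In WT, among classes of at least 50 cells, ISG15 was highest in the class ductal on every day, at 33.9, 19.9, 11.1 and 19.2 CPM. The WT class centroacinar_progenitor had 6.28, 7.39, 5.35 and 13.6 CPM. IFI6 followed this in WT, where ductal was highest on every day among the same classes, at 436, 210, 353 and 335 CPM. In CF, IFI6 was highest in centroacinar_progenitor on days 2, 5 and 7, at 2965, 436 and 313 CPM. On day 9 it was higher in centroacinar, at 195 beside 166 CPM. ISG20 and IFIT3 did not clearly follow ISG15 in WT. Among the same WT classes, centroacinar_progenitor was highest in ISG20 on days 2 and 9, at 31.5 and 79.2 CPM beside 29.2 and 71.7 CPM in ductal. It was highest in IFIT3 on days 5 and 7, at 6.01 and 5.35 CPM. In each case its counting interval overlapped that of another class. The classes had been named within each genotype, so classes of the same name were set side by side and not compared.

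ISG20 was patterned by cluster as well as by genotype. Over the 29 CF clusters it ranged from 11.9 to 690.1 CPM with a median of 73.9 CPM. The 12 WT clusters under 10 CPM of SOX2 held 5479 cells. Over them ISG20 ranged from 25.5 to 410.5 CPM with a median of 70.1 CPM. With days pooled, that median was close to the median of CF clusters. Over the other 27 WT clusters, which held 16060 cells, ISG20 ranged from 0 to 384 CPM with a median of 3.03 CPM. Of the 27, 19 were under 10 CPM, which was true of none of the 12 and none of the CF clusters. WT cluster 21, mostly of day 9, was an exception at 134 CPM of ISG20 with 138 CPM of SOX2. By day the levels were less close. On day 2 the SOX2-low WT clusters described above as high and mostly of day 2 had 168 CPM of ISG20. The other SOX2-low WT clusters had 80.3, 40.6, 43.8 and 93.1 CPM on days 2, 5, 7 and 9. The CF libraries had 219, 94.6, 62.8 and 75.7 CPM, higher on days 2, 5 and 7 and lower on day 9. The sets were split by a SOX2 limit chosen on these data, and clusters of a genotype share libraries.

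**Figure D5:**
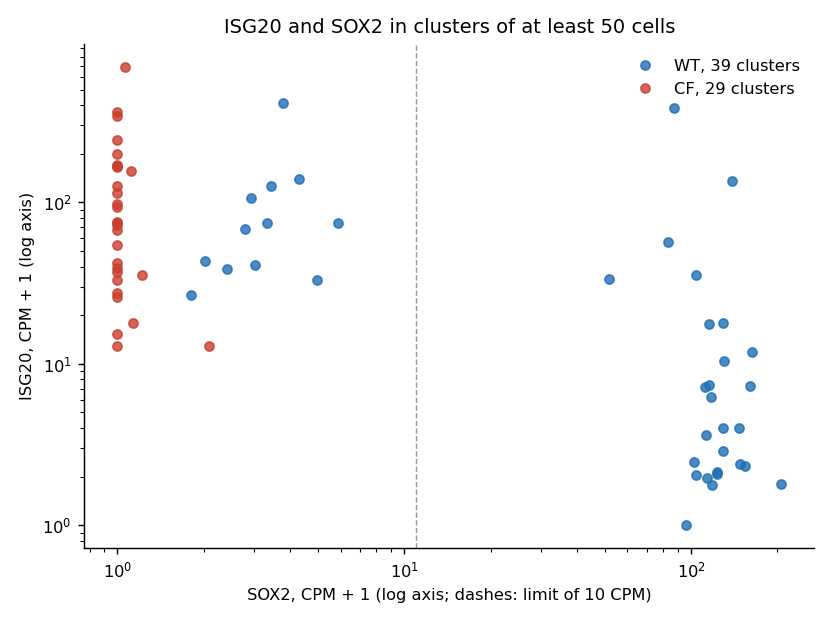
ISG20 against SOX2, both as CPM + 1 on log axes, for WT and CF clusters of at least 50 cells, with a dashed line at 10 CPM of SOX2. With days pooled, WT clusters to the left of the line had a median of 70.1 CPM of ISG20 beside 73.9 CPM in CF clusters. Most WT clusters to the right of it lie lower (median 3.03 CPM).

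Across clusters the 9 genes varied together to differing degrees. Of the 36 pairs of genes, Pearson's r of log2(CPM + 1) ran from 0.33 to 0.91 over the 39 WT clusters, with a median of 0.64, and from 0.13 to 0.83 over the 29 CF clusters, with a median of 0.54. The closest pairs were ISG15 with MX1 in WT, at 0.91, and ISG20 with USP18 in CF, at 0.83. In WT cluster 35, the highest WT cluster for both genes of the WT pair, 1 cell held all 10 MX1 UMIs. Another cell held 469 of the 763 ISG15 UMIs. Clusters share libraries and differ in depth, so these values are a description. Of 10654 genes compared in WT, those most like the mean of the 9 were EPSTI1 (0.93), LOC101675733 (0.93), TRIM22 (0.92), LOC101675223 (0.92), CMPK2 (0.87), UBE2L6 (0.82), LOC101676601 (0.82) and APOL5 (0.82). Of 10517 genes compared in CF, they included LOC101675223 (0.87), EPSTI1 (0.85), LOC101676601 (0.80), TLCD1 (0.80), SLC7A11 (0.80), CMPK2 (0.80) and PLAT (0.79). EPSTI1, LOC101675223, CMPK2 and LOC101676601 were in both lists. Without the clusters over 500 CPM of the 9 genes less IFI6, no r was obtained for LOC101675733, TRIM22 and APOL5 in WT. The same held for LOC101675223 in CF. Only genes of at least 10 CPM in a cluster were compared, and these genes may have reached that only in the clusters left out. Their place in the lists may thus come from the clusters that are highest in the 9 genes. How far their r rests on those clusters is not known. The other genes of the lists had r of 0.69 to 0.88 there in WT and 0.75 to 0.82 in CF. TLCD1, SLC7A11 and PLAT, which are in the CF list and not in the WT list, had r of 0.44, 0.31 and 0.40 in WT. UBE2L6 and APOL5, in the WT list and not in the CF list, had r of 0.64 and 0.58 in CF. Since the genes were chosen by r in 1 genotype, no difference between genotypes is read from these values.

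The ligand, receptor and signalling genes act before the 9 genes in the pathway. Of 10 interferon ligand genes looked for, 5 were in the matrices and only IFNE, an interferon of epithelia, was at a level over 1 CPM. IFNE stood at 16.9, 36.2, 38.8 and 35.1 CPM in WT and at 38.7, 51.6, 26.0 and 24.5 CPM in CF, so its order turned between days 5 and 7, and on day 2 it was 2-fold higher in CF, at 1.15 on log2(CPM + 1). IFNB1 and IFNG were at 0 UMIs in all 8 libraries, and 3 counts, the limit that a count of 0 allows, would be 0.0262 to 0.0864 CPM per library. Of the 6 receptor genes, IFNGR1 and IL10RB passed 2-fold higher in CF on day 2, 2 of 6 beside 4.81% of all genes, and IFNGR2 passed 2-fold lower on days 7 and 9, 1 of 6 beside 3.78% and 4.42%. IFNGR2, a chain of the interferon-gamma receptor, stood at 230.3, 265, 302 and 293 CPM in WT and at 158, 136, 123 and 126 CPM in CF. IFNAR1, a chain of the type I receptor, stood at 12.4 to 23.7 CPM in WT and 20.3 to 28.5 CPM in CF.

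Of 12 genes of JAK and STAT signalling and its feedback, 11 reached 1 CPM, none was 2-fold higher in CF and 1 was 2-fold lower on each day, where 5.13%, 5.35%, 3.78% and 4.42% of all genes were lower on days 2, 5, 7 and 9. That gene, named after its values were seen, was TYK2, the kinase at the type I receptor, at 7.53 to 7.95 CPM in WT and 1.54 to 2.82 CPM in CF. STAT2, a transcription factor that partners with IRF9, stood at 17.2 to 32.5 CPM in WT and 24.7 to 30.01 CPM in CF. Of 18 genes of nucleic acid sensing counted, 15 reached 1 CPM, none was 2-fold higher, and 2, 1, 2 and 1 were 2-fold lower in CF on those days, so that 1 of 15 is near these shares. RNASEH2A, a subunit of the nuclease that removes RNA from RNA-DNA hybrids, was among them on the first 3 days and SAMHD1, which breaks down nucleotides, on days 7 and 9. CGAS, also named after its values were seen, was the other on day 2, at 5.63 CPM in WT and 1.22 CPM in CF. It was lower in CF within 2-fold on the later days. SAMHD1 stood at 22.3 to 32.8 CPM in WT and 11.5 to 17.3 CPM in CF.

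Of 42 further interferon-stimulated genes counted, 39, 39, 39 and 38 reached 1 CPM on days 2, 5, 7 and 9, of which 6, 5, 4 and 2 were 2-fold higher in CF, beside 4.81%, 2.79%, 5.73% and 4.16% of all genes, and none was 2-fold lower. On day 9, 2 of 38 is near the share over all genes. Their median log2 difference was 0.31, 0.13, 0.11 and -0.04, beside -0.02, -0.06, 0.13 and 0.08 over all genes. MX2, a GTPase related to MX1, stood at 3.46, 5.14, 8.15 and 17.5 CPM in WT and at 25.01, 45.4, 44.4 and 29.8 CPM in CF. CMPK2, the mitochondrial nucleotide kinase beside RSAD2, stood at 3.53, 2.82, 3.57 and 4.35 CPM in WT and at 10.7, 9.04, 6.65 and 6.34 CPM in CF. UBE2L6, the enzyme that transfers ISG15 to its targets, was at 31.5 to 40.95 CPM in WT and 58.8 to 67.7 CPM in CF. IFITM10, of the interferon-induced transmembrane family by name, stood at 0.0611, 0.504, 0.289 and 0.590 CPM in WT and at 7.44, 3.97, 6.62 and 10.9 CPM in CF. IFITM10 was past 2-fold on all 4 days, as was TRIM14, named after its values were seen, at 0.0349 to 0.472 CPM in WT and 2.28 to 3.40 CPM in CF. UBE2L6 was within 2-fold on every day, and RTP4 and NMI, also named after their values were seen, were lower in CF on all 4 days within 2-fold.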

How the data were processed

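The authors aligned and counted reads with Cell Ranger 5.0.1 on ferret ASM1176430v1.1 with an improved ferret annotation, filtered and clustered cells in Seurat with R 4.1.2, and removed doublets with DoubletFinder; no doublet caller was run again. The deposited matrices were whole counts of UMIs for 27912 genes and 44243 barcodes, and the deposited cell table gave library, cluster, class, UMI count and percent of mitochondrial UMIs for 32945 retained cells, which were used here. Median mitochondrial shares were 5.65% to 10.7% per library. Deposited pseudotime scores and the normalized table were not used.

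UMIs were summed over retained cells per library, class or cluster and scaled to CPM. Intervals were exact Poisson for levels, exact conditional binomial for ratios and Clopper-Pearson for shares. All 9 genes were named, with up to 4 genes per pathway list of at least 10 CPM with the largest mean difference, and the 8 genes most like the 9 per genotype, except items that are not reported here. The genes, lists and the SOX2 limit of 10 CPM were chosen with earlier results of these data known. The fold and interval steps were tested on simulated data. Of the matrix genes, 27467 were found in the RefSeq table. Genotype and day came from the sample titles, and another label gives a longer time at the interface, which was not used. Tools were Python 3.11.15, numpy 2.4.6, scipy 1.17.1, pandas 2.3.3, matplotlib 3.10.9, and, for scaling factors alone, edgeR 4.0.16 and DESeq2 1.42.0 in R 4.3.3.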

Additional observations from a re-analysis of the deposited data

Results flagged for a closer look

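Several ratios lay on opposite sides of 1, beyond counting error, on different days or in the other genotype. None of these differences was tested, since each value rests on 1 library per genotype and day.

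The CF over WT ratio changed side between days for 5 of the 9 genes. For ISG15 it was 1.65 on day 2 and 1.77 on day 5, and 0.638 on day 9. For IFI6 it was 2.89 and 1.70 on days 2 and 5, and 0.968 and 0.922 on days 7 and 9. For IFIT3 it was 1.34 and 1.27 on days 2 and 5, and 0.754 and 0.305 on days 7 and 9. For RSAD2 it was 3.66 on day 2 and 0.360 on day 9, from 7 to 36 UMIs per library. For IRF7, at 10 to 75 UMIs, it was 0.642 on day 2, 2.10 on day 5 and 0.394 on day 9.

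The day 9 over day 2 ratio went opposite ways in the genotypes for 4 genes. ISG20 was at 2.30 in WT and 0.345 in CF, RSAD2 at 4.05 and 0.398, IFIH1 at 1.30 and 0.661, and USP18 at 1.37 and 0.843.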

How the results depend on the processing

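Limits. No value has a replicate, so the spread between cultures is unknown, and a move beyond counting error says nothing of other cultures. No paired analysis was possible because the labels carry no replicate numbers and each genotype and day is 1 library. At 7 to 143 UMIs per library, MX1, IRF7 and RSAD2 bear wide intervals. Over all genes, TMM lowers the CF minus WT log2 difference by 0.21 on day 7 and 0.13 on day 9, and DESeq2 size factors by 0.16 and 0.10. Alternatives without IFI6, without the 3 clusters over 500 CPM of the other 8 genes (CF cluster 4, WT clusters 33 and 35), without the top cell of each gene, and against SOX2-low WT clusters other than 19 and 33 were added after seeing the data. The highest cluster of each genotype was CF cluster 4 and WT cluster 35, with 14.5% and 0.14% of the UMIs of their day 2 libraries. On day 2 that setting takes out high cells mostly from CF. Leaving WT clusters 19 and 33 out of the SOX2-low WT cells takes out high cells from WT alone.

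The CF over WT ratio of the 9 genes together, 3.06, 1.92, 1.12 and 0.985 on days 2, 5, 7 and 9, was 2.99, 2.00, 1.00 and 0.917 with DESeq2 size factors and 2.95, 1.96, 0.974 and 0.902 with TMM. It was 0.981, 1.58, 0.778 and 0.543 against SOX2-low WT clusters, 1.81, 1.58, 0.781 and 0.633 against those other than WT clusters 19 and 33, and 4.01, 2.35, 1.28 and 1.08 with equal weight for each class. It was 2.79, 1.23 and 1.03 with thinned cells on days 2, 7 and 9, and 1.80 and 1.06 with every barcode on days 5 and 7. It was 3.87, 2.55, 1.92 and 1.11 without IFI6, 2.48, 1.09 and 1.1 without the 3 clusters on days 2, 7 and 9, and 2.12 and 1.09 without the highest cluster of each genotype on days 2 and 7.

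Each count of the 9 genes past 2-fold is followed by the share of all genes of at least 1 CPM past it in the same setting. Genes 2-fold higher on day 2, 3 beside 4.81%, numbered 0 beside 2.83% against SOX2-low WT clusters, 1 beside 3.94% against those other than WT clusters 19 and 33, and 5 beside 5.1% with equal class weight. It was 2 with TMM (4.62%), without the highest cluster (4.25%), without the 3 clusters (4.49%), without the top cell (4.78%), with a pseudocount of 5 CPM (2.27%) and with thinned cells (4.59%, from the expected value of thinning), and with a pseudocount of 0.1 CPM it was 4, of which 3 reached 1 CPM (6.49%). On day 5, 2 beside 2.79% became 4 beside 3.76% with equal class weight. It was 3 with a pseudocount of 0.1 CPM (4.15%), without the top cell (2.8%) and against SOX2-low clusters (4.86%). With thinned cells it became 1 as drawn and 2 beside 3.09% at the expected value of thinning. It became 1 with a minimum of 5 CPM (2.48%), a pseudocount of 5 CPM (1.15%), and without the 3 clusters or the highest cluster (2.78% each). On day 7, 1 beside 5.73% became 0 beside 7.44% and 7.41% against SOX2-low WT clusters with and without WT clusters 19 and 33. Genes 2-fold lower numbered 5 beside 2.23% in place of 0 beside 5.13% on day 2 against SOX2-low clusters. On day 9, 1 beside 4.42% became 2 beside 2.07% against SOX2-low clusters and, with a pseudocount of 0.1 CPM, 3, of which 1 reached 1 CPM (5.73%). It became 0 with equal class weight (4.96%), a pseudocount of 5 CPM (2.33%), without the 3 clusters (4.4%) and against SOX2-low clusters other than WT clusters 19 and 33 (1.96%).

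Between days, the ratio of the summed level from day 2 to 5 in CF, 0.337, was 0.303 with DESeq2 size factors, 0.300 with TMM, 0.350 thinned, 0.319 with every barcode and 0.468 without the highest cluster. From day 5 to 7 in CF, 0.778 became 0.707, 0.696, 0.833 and, with every barcode, 0.727. From day 7 to 9 in CF, 0.817 became 0.849, 0.851, 0.788, 0.881 and, without the highest cluster, 0.854. In WT, 0.538 from day 2 to 5 became 0.453, 0.451, 0.517 and, without the highest cluster, 0.525, 1.33 from day 5 to 7 became 1.41, 1.4, 1.29 and, with every barcode, 1.23, and 0.932 from day 7 to 9 became 0.964 with every barcode.

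Of 432 values of single genes, 265 moved by no more than counting error, 150 moved by more, and 17 changed side, the cause of which was not tested. No intervals are given for the values that changed side, and some of them are small. On log2(CPM + 1), CF minus WT became -0.021 for IRF7 on day 5 and 0.10 for IFI6 on day 7 with thinned cells, and 0.25 for IRF7 on day 2 and 0.16 for IFIT3 on day 7 with equal class weight. Without the highest clusters, it became -0.20 for ISG15, -0.63 for IFIT3 and -0.0062 for RSAD2 on day 2. Against SOX2-low WT clusters, it became -1.66 for ISG15, -1.96 for IFIT3, -0.19 for RSAD2 and -1.11 for USP18 on day 2, and -0.57 for ISG20 on day 9. Against those other than WT clusters 19 and 33, it became -0.29 for IFIT3 and -0.20 for USP18 on day 2, and -0.29 for ISG20 on day 9. Without the 3 clusters, it became -0.056 for IFIT3 on day 2 and 0.017 for IFI6 on day 9.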

Other observations

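Of 18 genes of the interferon-gamma response and antigen presentation that were counted, 13 or 14 reached 1 CPM on each day, and their median log2 difference was 0.31, 0.10, 0.17 and 0.06 on days 2, 5, 7 and 9, beside -0.02, -0.06, 0.13 and 0.08 over all genes. On day 2, 3 were 2-fold higher in CF and none lower, on day 5, 2 higher and 1 lower, on day 7, 2 higher and 3 lower, and on day 9, 1 higher and 2 lower, where 2.79% to 5.73% of all genes were higher and 3.78% to 5.35% lower. PSMB9, a subunit of the immunoproteasome, stood at 2.37, 1.09, 2.06 and 1.67 CPM in WT and at 8.61, 10.6, 9.21 and 6.82 CPM in CF. CD274, the immune checkpoint ligand PD-L1, stood at 4.90, 9.85, 10.0 and 11 CPM in WT and at 4.99, 2.15, 1.24 and 1.38 CPM in CF. CD74, the invariant chain of MHC class II, rose in WT to 99.1 CPM on day 9, where CF had 17.3 CPM. CXCL11, a chemokine, stood at 16.1 to 18.6 CPM in WT and 6.45 to 9.16 CPM in CF.

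Of 8 interferon regulatory factor genes other than IRF7, which act as transcription factors or their partners, 6 or 7 reached 1 CPM on each day, and 1 was 2-fold higher in CF, on day 2, beside 4.81% of all genes. That gene, named after its values were seen, was IRF5, at 0.0873 CPM in WT and 1.25 CPM in CF. IRF1, the factor most tied to interferon-gamma, stood at 9.19, 16.6, 14.4 and 18.02 CPM in WT and at 16.7, 24.4, 20.5 and 31.3 CPM in CF, higher in CF on all 4 days and within 2-fold.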
